A study of Drosophila melanogaster with 9 samples.

Results

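The genes described here make fatty acids and store them in lipid droplets. They are the fatty acid synthase genes FASN1, FASN2 and FASN3, the acetyl-CoA carboxylase gene ACC, the desaturase gene Desat1, the droplet coat genes Lsd-1 and Lsd-2, the lipase gene bmm, the acyltransferase gene mdy and the regulator gene SREBP. These 10 genes were chosen by symbol from the 16837 genes in the files, and all 10 had a row. When they were chosen, it was already known that lipid metabolism genes, FASN1 and Lsd-1 among them, stood lower in Chd1-deficient libraries than in those of elav>Chd1 flies. Values of that comparison are therefore given as a description, with no test. Its libraries also enter both comparisons with wild type, so p-values of the 10 genes there are not independent of the choice.

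RNA came from fly heads (Drosophila melanogaster), taken from unmated females 10 days old that were kept at 25 °C. The groups, with 3 libraries each, were Chd1-deficient flies, titled Chd1[-/-]; elav>Chd1 flies, titled elav-Gal4>UAS-Chd1 and also called Chd1-rescued; and wild-type flies, titled Chd1[WT/WT]. Chd1 is a nucleosome remodelling enzyme with chromodomains and a helicase-type motor. The elav-Gal4 driver is known for switching on UAS transgenes in neurons, and where the transgene was active in these flies was not measured. The labels do not state outright whether elav>Chd1 flies also carry the deletion, and the series text names no wild type. Labels also do not say that libraries of a genotype came from separate flies, so p-values reflect library-to-library spread alone, possibly of technical origin.

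In insects as in mammals, acetyl-CoA carboxylase makes malonyl-CoA, fatty acid synthase builds it into saturated fatty acids, and desaturases add a double bond. Acyltransferases join fatty acids to glycerol as triacylglycerol, which is kept in droplets coated by perilipins and released by lipases. The fat body is the main store in flies, oenocytes make very long chain lipids and cuticular hydrocarbons, and the ovary loads eggs with lipid.

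Levels are in TPM, a unit of transcript abundance that the authors scaled for transcript length and library size, so levels of different genes can be set side by side but sequencing depth is unknown. Each library summed to 999685 to 999850 TPM. Fold changes and standard errors were computed after adding 0.5 TPM and taking log2, so changes of low genes are understated. Adjusted p is from limma over the 11094 genes that reached 1 TPM in 3 or more libraries, with a threshold of 0.05. All 10 genes passed that filter. Chd1 stood at 18.2, 19.9 and 20.2 TPM in Chd1-deficient libraries, 63.7, 63.1 and 63.7 TPM in elav>Chd1 libraries, and 103.8, 108.5 and 92.7 TPM in wild-type libraries. Its log2 fold change was -2.35 in Chd1-deficient and -0.67 in elav>Chd1 against wild type (limma adjusted p = 2.4e-10 and 5.9e-06). The libraries also held transcripts of tissues and of a sex outside the labels, so values cannot be assigned to female heads alone. The summed level of 10 ovary markers was 24674 to 26496 TPM, 25908 to 28304 TPM and 20204 to 25327 TPM in these groups, most of it from the eggshell genes Vm26Aa, Vm26Ab and Vm34Ca. Against wild type, 3 of the 10 rose and 6 fell in Chd1-deficient, and 5 rose and 4 fell in elav>Chd1 libraries. The germline genes among them fell in both, osk by 0.57 and 0.17, nos by 0.86 and 0.42, vas by 0.56 and 0.50, and bcd by 0.61 and 0.36 (log2, limma adjusted p at most 0.0187). Neuron markers (5 genes) summed to 255 to 272 TPM, 93.0 to 94.8 TPM and 44.0 to 49.8 TPM. Markers of the male germline and accessory gland (7 genes) summed to 220.2 to 242 TPM in Chd1-deficient libraries, 7.10 to 10.3 TPM in elav>Chd1 libraries and 25.1 to 27.6 TPM in wild-type libraries. Muscle markers (5 genes) summed to 1422 to 1481, 724 to 739 and 237 to 243 TPM, and those of the midgut (5 genes) to 3156 to 3286, 3078 to 3118 and 1832 to 2105 TPM, in the same order. No marker was at 0 in any group, and their part in the results below was not tested.

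Fatty acid synthase transcripts were highest in the elav>Chd1 libraries for each of the 3 genes. FASN1, the main synthase of the fat body, was at 43.8, 44.4 and 44.1 TPM in Chd1-deficient libraries, 111.1, 110.7 and 108.7 TPM in elav>Chd1 libraries, and 42.8, 40.8 and 39.1 TPM in wild-type libraries. The elav>Chd1 libraries lay far above the other 6, and the Chd1-deficient libraries lay just above wild type without overlap. Against wild type, FASN1 rose in elav>Chd1 by 1.42 (log2, SE 0.04, limma adjusted p = 1.1e-09), a ratio of mean TPM of 2.69. Its rise in Chd1-deficient over wild-type libraries was 0.11 (log2, SE 0.04, limma adjusted p = 0.022). That call was lost with only those groups in the fit (0.066), without Chd1-deficient replicate 2 (0.057) or 3 (0.055), and without wild-type replicate 2 (0.051). In bulk RNA, a change in the number of cells of a type and a change of RNA per cell cannot be told apart.

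**Figure D1:**
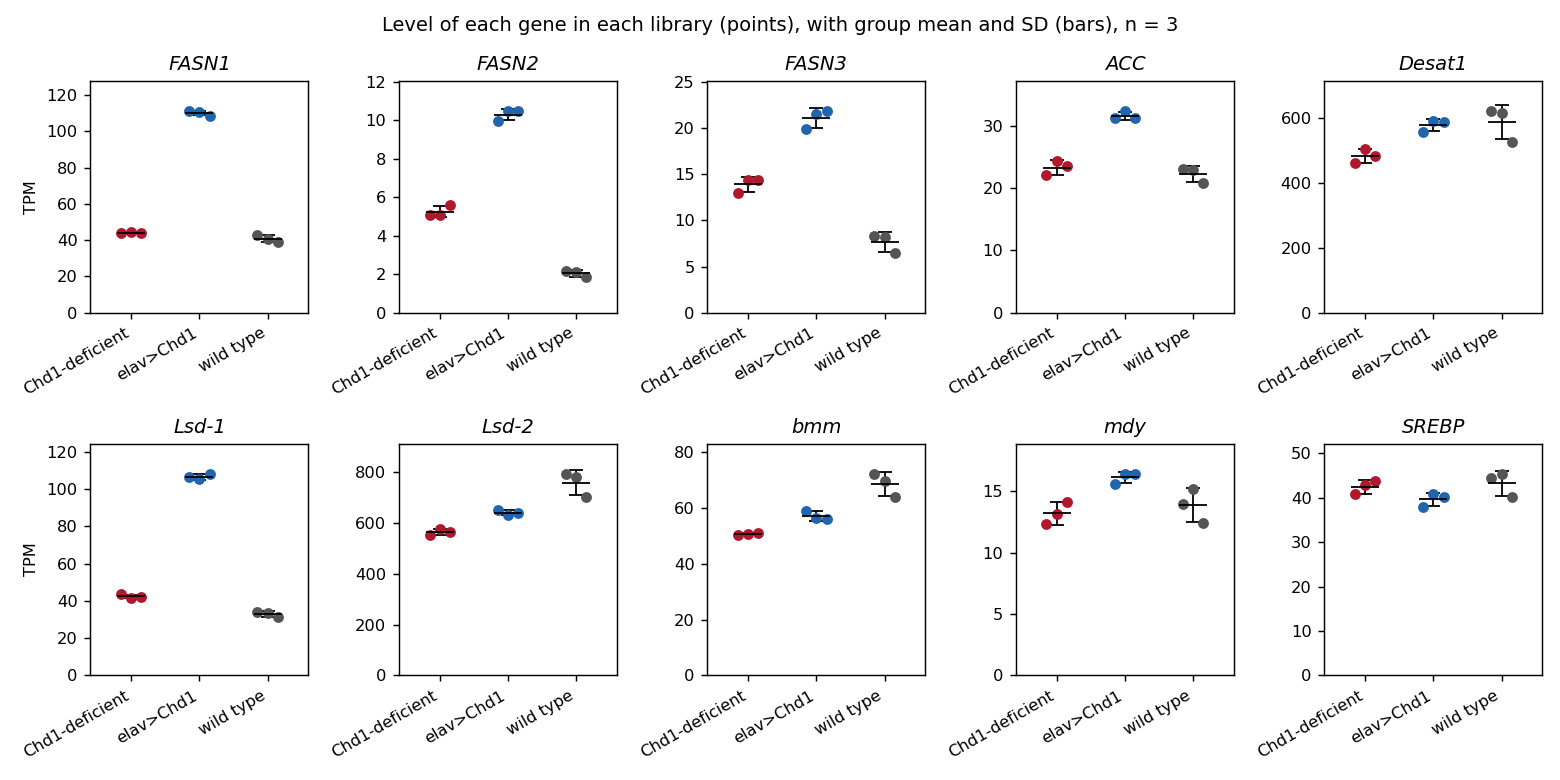
Level in TPM (vertical axis, from 0, its own scale for each gene) of the 10 genes in each library, by genotype. Points are libraries and bars are the group mean and SD (n = 3); FASN1 and Lsd-1 sit near 110.2 and 107 TPM in elav>Chd1 libraries and at or under 44.4 TPM in all others, while SREBP overlaps between all groups.

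FASN2 and FASN3 are known for lipid synthesis in oenocytes, and both separated all 3 genotypes. FASN2 was the lowest of the 10 genes, at 5.09, 5.06 and 5.58 TPM in Chd1-deficient libraries, 9.95, 10.5 and 10.5 TPM in elav>Chd1 libraries, and 2.18, 2.11 and 1.84 TPM in wild-type libraries. No library of one group overlapped those of another. FASN2 shares 116 and 131 bases on the same strand with snRNA:LU and snRNA:U5:23D (means 1.28 and 1.93 TPM), whose reads may not be separable. Its log2 fold change was 1.18 in Chd1-deficient against wild type (SE 0.08, limma adjusted p = 2.3e-07) and 2.09 in elav>Chd1 against wild type (SE 0.08, limma adjusted p = 1.6e-08), a 5.04-fold ratio of means in the second case. The authors' deposited table lists FASN2 for the first of these at a log2 fold change of 1.44 (SE 0.0757). Here it was 1.04 to 1.32 over all settings, and why the authors' value is larger was not tested. FASN3 had 13.0, 14.4 and 14.4 TPM in Chd1-deficient libraries, 19.8, 21.5 and 21.8 TPM in elav>Chd1 libraries, and 8.35, 8.25 and 6.45 TPM in wild-type libraries. The order of the genotypes was that of FASN2, again without overlap. FASN3 rose by 0.82 in Chd1-deficient (log2, SE 0.10, limma adjusted p = 1.1e-05) and by 1.40 in elav>Chd1 libraries (log2, SE 0.10, limma adjusted p = 8.7e-07), both against wild type.

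Together the synthase genes summed to 61.9 to 64.1 TPM in Chd1-deficient libraries, 140.9 to 142.6 TPM in elav>Chd1 libraries and 47.4 to 53.4 TPM in wild-type libraries. FASN1 made up 69.7% ± 1.00 of that sum in Chd1-deficient, 77.8% ± 0.91 in elav>Chd1 and 80.8% ± 1.46 in wild-type libraries (SD, n = 3). The share of FASN3 was 22.0% ± 0.89, 14.9% ± 0.72 and 15.1% ± 1.33, and that of FASN2 was 8.28% ± 0.39, 7.27% ± 0.19 and 4.03% ± 0.13, in the same order. Thus FASN1 was the largest part in all 9 libraries, with its lowest share in Chd1-deficient ones. Reads common to these related genes could be divided between them by the authors' quantification, and the files do not show how.

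ACC makes the malonyl-CoA that the synthases use, and it was also highest in elav>Chd1 libraries. It stood at 22.0, 24.3 and 23.5 TPM in Chd1-deficient libraries, 31.2, 32.3 and 31.2 TPM in elav>Chd1 libraries, and 23.1, 22.8 and 20.8 TPM in wild-type libraries. Chd1-deficient and wild-type libraries overlapped, and elav>Chd1 libraries lay above both. The log2 fold change was 0.50 in elav>Chd1 against wild type (SE 0.06, limma adjusted p = 2.3e-05) and 0.06 in Chd1-deficient against wild type (SE 0.06, limma adjusted p = 0.293). The log2 ratio of FASN1 to ACC within a library averaged 0.92 ± 0.06 in Chd1-deficient, 1.80 ± 0.03 in elav>Chd1 and 0.88 ± 0.04 in wild-type libraries (SD, n = 3). ACC overlaps Nup44A, which lies on the opposite strand over 2822 bases and averaged 97.8 TPM, so reads of the pair cannot be told apart if strand was not used.

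Desat1, which introduces the first double bond into palmitic and stearic acid, was the most abundant of the biosynthetic genes. Its levels were 461, 505 and 484 TPM in Chd1-deficient libraries, 558, 592 and 588 TPM in elav>Chd1 libraries, and 620.5, 615 and 526 TPM in wild-type libraries. Chd1-deficient libraries were the lowest, and elav>Chd1 and wild-type libraries overlapped. Desat1 fell by 0.28 in Chd1-deficient against wild type (log2, SE 0.06, limma adjusted p = 0.00136). In elav>Chd1 against wild type its log2 fold change was -0.02 (SE 0.06, limma adjusted p = 0.813), and its sign turned with median-ratio scaling (0.04). Unlike those of the synthase genes, its elav>Chd1 libraries did not stand above wild type.

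The last step of triacylglycerol synthesis is represented by mdy, a diacylglycerol acyltransferase. Its transcript stood at 12.3, 13.2 and 14.2 TPM in Chd1-deficient libraries, 15.6, 16.4 and 16.4 TPM in elav>Chd1 libraries, and 13.9, 15.2 and 12.4 TPM in wild-type libraries. The elav>Chd1 libraries lay above the rest by a small margin, and Chd1-deficient and wild-type libraries overlapped. In elav>Chd1 against wild type mdy had a log2 change of 0.22 (SE 0.08, limma adjusted p = 0.028). Left out in turn, elav>Chd1 replicate 2 (0.075) or 3 (0.074) and wild-type replicate 3 (0.079) or 1 (0.050) each took that p past the threshold. In Chd1-deficient against wild type it had -0.06 (SE 0.08, limma adjusted p = 0.455), with no stable sign. Cse1, on the opposite strand, shares 4052 bases with mdy and averaged 144.6 TPM, so the low mdy level is uncertain unless strand was used.

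The perilipins, which coat droplets and control access of lipases, moved in opposite directions against wild type. Lsd-1 stood at 43.6, 41.7 and 42.0 TPM in Chd1-deficient libraries, 106.6, 105.2 and 108.2 TPM in elav>Chd1 libraries, and 34.1, 33.6 and 31.4 TPM in wild-type libraries. It separated all groups, with the elav>Chd1 libraries far above the others. CG10214, on the opposite strand, shares 144 bases with Lsd-1 and averaged 58.1 TPM, so reads there cannot be told apart if strand was not used. Lsd-1 rose in Chd1-deficient by 0.36 (log2, SE 0.04, limma adjusted p = 1.1e-05) and in elav>Chd1 by 1.68 (log2, SE 0.04, limma adjusted p = 5.7e-10), both against wild type. As for FASN1, these libraries were behind the choice of Lsd-1, so neither p-value is independent of it. Lsd-2, the perilipin that shields droplets from lipases and is also abundant in the germline, stood at 550.0, 575 and 564 TPM in Chd1-deficient libraries, 648, 631 and 639 TPM in elav>Chd1 libraries, and 791, 778 and 702 TPM in wild-type libraries. These groups did not overlap either, and wild type was the highest. Lsd-2 fell by 0.42 in Chd1-deficient (log2, SE 0.04, limma adjusted p = 3.8e-06) and by 0.24 in elav>Chd1 (log2, SE 0.04, limma adjusted p = 4.8e-04), both against wild type. The germline genes osk, nos, vas and bcd, given above, also fell in both comparisons. Other ovary markers did not: Vm26Aa (log2 0.48 and 0.24), Vm26Ab (0.69 and 0.50) and psd (0.38 and 0.33) rose in both. Cp36 and Cp38 fell in Chd1-deficient and rose in elav>Chd1 libraries, and Vm34Ca was not called. The part of ovary transcripts in the values of Lsd-2 and bmm was not tested.

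Within a library, the ratio of these perilipins does not depend on how libraries are scaled. Lsd-2 was 12.6 to 13.8 times as abundant as Lsd-1 in Chd1-deficient libraries, 5.91 to 6.08 times in elav>Chd1 libraries and 22.4 to 23.2 times in wild-type libraries. The log2 ratio of Lsd-1 to Lsd-2 averaged -3.73 ± 0.07 in Chd1-deficient, -2.58 ± 0.02 in elav>Chd1 and -4.52 ± 0.03 in wild-type libraries (SD, n = 3). It was higher than in wild type by 0.79 in Chd1-deficient and by 1.93 in elav>Chd1 libraries. In each case the groups did not overlap, and the two-sided exact permutation p of 0.10 was the smallest that 3 against 3 libraries allow. Libraries behind the choice of Lsd-1 enter both comparisons, so neither is independent of that choice.

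**Figure D2:**
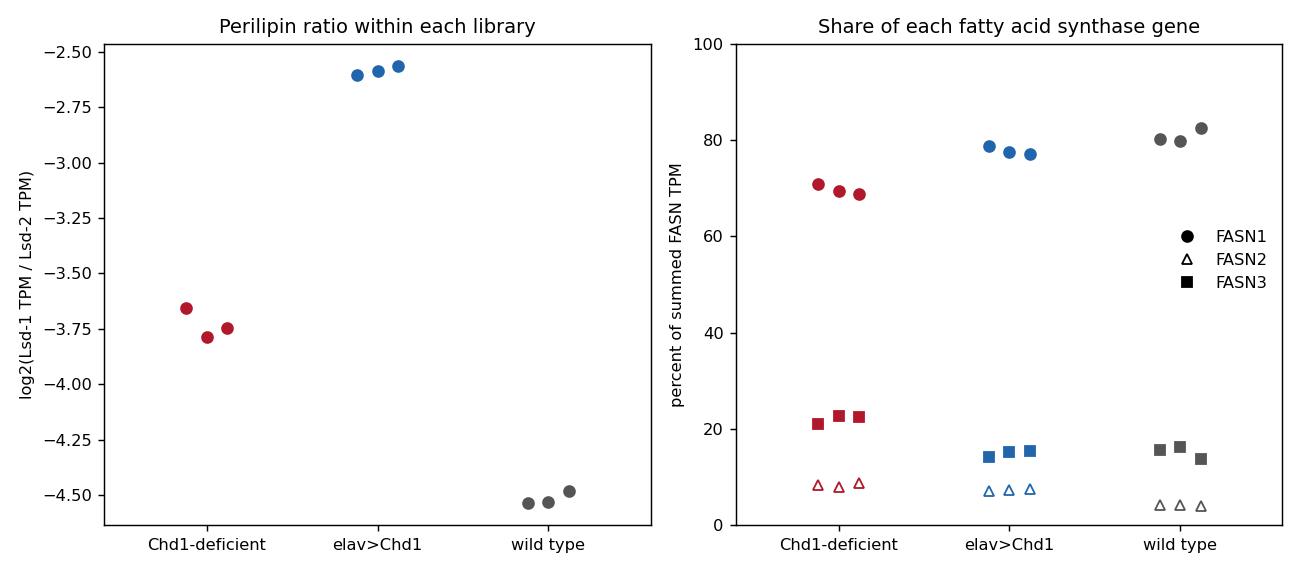
Left, log2 ratio of Lsd-1 to Lsd-2 TPM in each library; right, percent of the summed TPM of the fatty acid synthase genes that each one takes in each library. The perilipin ratio separates the genotypes (means -3.73, -2.58 and -4.52), and the FASN1 share lies at 68.9% to 70.8% in Chd1-deficient libraries, below all others.

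Brummer, encoded by bmm, is the triacylglycerol lipase that works on droplets. It was at 50.4, 50.7 and 51.2 TPM in Chd1-deficient libraries, 59.1, 56.4 and 56.0 TPM in elav>Chd1 libraries, and 72.2, 69.6 and 63.9 TPM in wild-type libraries. The groups were separate, in the order of Lsd-2. It fell by 0.43 in Chd1-deficient (log2, SE 0.05, limma adjusted p = 7.5e-06) and by 0.26 in elav>Chd1 (log2, SE 0.05, limma adjusted p = 5.6e-04), both against wild type. Across the 3 comparisons the log2 fold changes of bmm and Lsd-2 differed from each other by at most 0.02. Lsd-1 was 0.82 to 0.86 times as abundant as bmm in Chd1-deficient libraries, 1.80 to 1.93 times in elav>Chd1 libraries and 0.47 to 0.49 times in wild-type libraries.

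SREBP encodes the membrane-bound transcription factor that, once cleaved, switches on fatty acid synthesis genes; in flies it responds to phosphatidylethanolamine. Its own transcript was at 40.8, 42.8 and 43.8 TPM in Chd1-deficient libraries, 38.0, 40.9 and 40.1 TPM in elav>Chd1 libraries, and 44.5, 45.4 and 40.1 TPM in wild-type libraries. All groups overlapped. The log2 fold change was -0.03 in Chd1-deficient (SE 0.05, limma adjusted p = 0.657) and -0.12 in elav>Chd1 (SE 0.05, limma adjusted p = 0.0601), against wild type; without wild-type replicate 3 the second became -0.18 and passed the threshold (adjusted p = 0.0045). SREBP is activated by cleavage, which transcript levels do not measure.

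Counted together, 4 of the 10 genes rose, 3 fell and 3 were not called in Chd1-deficient against wild-type libraries. Over all genes tested, 88.9% were called in that comparison, 42.9% higher and 46.0% lower, so a call sets none of the 10 apart. Without overlap between libraries, 4 of the 10 lay above and 3 below wild type, against 42.8% and 45.5% of all genes. In elav>Chd1 against wild type, 6 rose (FASN1, FASN2, FASN3, ACC, Lsd-1 and mdy), 2 fell (Lsd-2 and bmm) and 2 were not called. There 77.9% of all genes were called, 30.6% higher and 47.3% lower. The same 6 lay above and the same 2 below wild type without overlap, against 30.7% and 47.6% of all genes. The median (log2) was 0.36 over the 10 genes and -0.15 over all. In Chd1-deficient against wild type it was 0.02 over the 10 genes and -0.05 over all. Both the elav>Chd1 and the Chd1-deficient libraries enter the comparison that was known when the genes were chosen. Neither set of counts and medians against wild type is therefore independent of that choice.

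In the comparison known when the genes were chosen, all Chd1-deficient libraries lay below all elav>Chd1 libraries in 9 of the 10 genes, as they did in 39.6% of all genes, with 37.5% above. This count describes the choice and nothing is read from it. Of all genes, 68.4% were called, 33.7% lower and 34.7% higher; with at least 10 TPM required in 3 libraries, 3398 were called lower and 1596 higher. FASN1 and Lsd-1 had the largest differences among the 10 genes, Chd1-deficient over elav>Chd1, with log2 fold changes of -1.31 (SE 0.04) and -1.32 (SE 0.04). The authors' deposited table gives -1.30 (SE 0.0284) for FASN1 and -1.31 (SE 0.0470) for Lsd-1. It holds only log2 fold changes of at least 1 in size and lists none of the other 8. FASN2, FASN3 and ACC followed at -0.91, -0.58 and -0.43, then mdy at -0.28 and Desat1 at -0.26. Lsd-2 and bmm stood at -0.18 and -0.17, and SREBP, the one gene not lower, at 0.10. The median over the 10 genes was -0.36, against -0.02 over all genes.

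**Figure D3:**
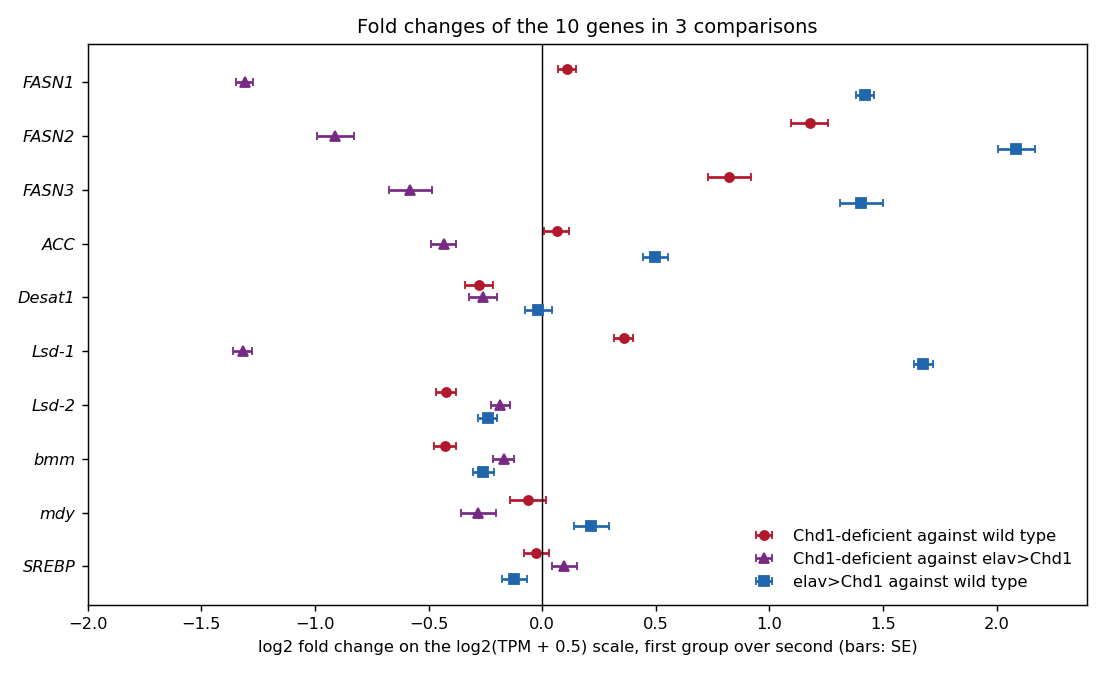
Log2 fold change (horizontal axis, log2(TPM + 0.5) scale, first group over second) of the 10 genes in 3 comparisons that share libraries; bars are SE. The elav>Chd1 against wild-type values of FASN1 (1.42), FASN2 (2.09), FASN3 (1.40) and Lsd-1 (1.68) lie to the right, while Lsd-2 and bmm are left of 0 in each comparison.

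The other genes of lipid metabolism were taken from 7 lists with 67 tested genes. In Chd1-deficient against wild type 22 were called higher and 34 lower, against 42.9% and 46.0% of all genes tested. In elav>Chd1 against wild type 23 were called higher and 24 lower, against 30.6% and 47.3% of all genes. The same shares apply to the list counts below. Medians over the 67 were -0.11 and -0.02, against -0.05 and -0.15 over all genes. In 13 of the 67 (19.4%) all elav>Chd1 libraries lay above all others, as in 6 of the 10 genes above, against 6.34% of all genes tested. Lying above all others includes the comparison known when the 10 genes were chosen, and the lists were also chosen with earlier results known. These shares are therefore not independent of that choice, and nothing is read from them. These 13 were Men, Pgd, Fad2, eloF, Hacd1, Sc2, Agpat4, CG1946, Lip4, mag, AkhR, bigmax and sug.

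Of the 7 genes for carbon and NADPH supply, 1 was higher and 4 lower in Chd1-deficient, and 2 were higher and 1 lower in elav>Chd1 libraries, against wild type. Zw, glucose-6-phosphate dehydrogenase, stood at 19.5 ± 0.35, 19.0 ± 1.04 and 14.2 ± 0.13 TPM in Chd1-deficient, elav>Chd1 and wild-type libraries (SD, n = 3, as below), and rose in both comparisons (log2 0.45 and 0.41, limma adjusted p = 1.2e-05 and 5.5e-05). Men, malic enzyme, fell by 0.14 in Chd1-deficient (limma adjusted p = 0.00324) and rose by 0.30 in elav>Chd1 (limma adjusted p = 2.5e-05), at 141 ± 4.71, 191 ± 4.83 and 155 ± 2.45 TPM. Idh, isocitrate dehydrogenase, fell by 0.52 and by 0.10 (limma adjusted p = 1.3e-07 and 0.0167); the second call was lost with median-ratio scaling and without elav>Chd1 or wild-type replicate 1 (adjusted p = 0.095, 0.072 and 0.062). ATPCL, the ATP citrate lyase that makes cytosolic acetyl-CoA, chosen after its values were seen, stood at 66.6 ± 1.78, 82.7 ± 1.87 and 83.1 ± 6.23 TPM.

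Among the 10 tested genes of fatty acid activation, elongation and desaturation, 7 rose and 1 fell in Chd1-deficient, and 6 rose and 3 fell in elav>Chd1 libraries, against wild type. Fad2, the female-specific desaturase of pheromone synthesis also called desatF, stood at 62.4 ± 1.63 TPM in Chd1-deficient, 97.7 ± 1.59 TPM in elav>Chd1 and 25.5 ± 0.63 TPM in wild-type libraries (log2 1.28 and 1.92, limma adjusted p = 5.8e-10 and 1.0e-10). The order of genotypes equals that of FASN1, FASN2, FASN3 and Lsd-1. The elongase gene eloF, which acts in the same pheromone pathway, stood at 23.8 ± 0.91, 55.9 ± 1.33 and 19.0 ± 1.71 TPM and rose by 1.54 in elav>Chd1 (limma adjusted p = 2.3e-08) and by 0.33 in Chd1-deficient (limma adjusted p = 5.7e-04). Elo68alpha, an elongase of the male reproductive tract, was at 1.86 ± 0.26 TPM in Chd1-deficient and at 0.27 ± 0.11 and 0.24 ± 0.09 TPM in elav>Chd1 and wild-type libraries, and the male markers given above were likewise highest in Chd1-deficient libraries; their part here was not tested. This gene passed the filter on low values only through the Chd1-deficient libraries, so its place among the 7 that rose there carries no weight.

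Glycerolipid assembly genes split evenly in Chd1-deficient libraries (3 of 10 higher, 3 lower) and nearly so in elav>Chd1 libraries (4 higher, 3 lower), against wild type. Agpat1, which adds the second acyl chain to glycerol phosphate, fell in both, at 16.7 ± 0.22, 22.9 ± 0.89 and 31.9 ± 1.29 TPM (log2 -0.91 and -0.47, limma adjusted p = 4.7e-08 and 1.6e-05). Dgat2, the other type of diacylglycerol acyltransferase, was low, at 1.34 ± 0.33 TPM in Chd1-deficient, 0.39 ± 0.14 TPM in elav>Chd1 and 0.23 ± 0.09 TPM in wild-type libraries. It passed the filter on low values only through the Chd1-deficient libraries, so its place among the 3 higher genes there carries no weight. CG1946, of the same family, was at 1.27 ± 0.24, 1.87 ± 0.27 and 1.11 ± 0.42 TPM and rose in elav>Chd1 by 0.59 (limma adjusted p = 0.0183, or 0.065 without elav>Chd1 replicate 2).

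All 8 other droplet and lipolysis genes were called in Chd1-deficient against wild type, 4 higher and 4 lower, and in elav>Chd1 against wild type 3 were higher and 3 lower. Ldsdh1, a droplet dehydrogenase, rose in both, at 34.1 ± 0.89, 33.8 ± 0.69 and 19.3 ± 1.68 TPM (log2 0.81 and 0.80, limma adjusted p = 4.5e-07 and 2.2e-06). Seipin, which shapes newly forming droplets, fell in Chd1-deficient, at 13.0 ± 0.33 against 20.4 ± 1.5 TPM in wild type (log2 -0.63, limma adjusted p = 5.2e-06), and stood at 19.3 ± 1.09 TPM in elav>Chd1. The lipase gene mag stood at 35.5 ± 0.72, 47.3 ± 2.21 and 25.4 ± 1.46 TPM, and Lip4 at 8.39 ± 0.96, 13.5 ± 0.78 and 5.56 ± 0.57 TPM. Both rose in each comparison with wild type, mag by 0.47 and 0.88 (log2, limma adjusted p = 7.7e-06 and 3.3e-07) and Lip4 by 0.55 and 1.21 (log2, limma adjusted p = 2.8e-04 and 2.8e-06).

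Against wild type, the calls among fatty acid oxidation genes were all in 1 direction. Of its 13 genes, 11 fell and none rose in Chd1-deficient, and 8 fell and none rose in elav>Chd1 libraries (5 with median-ratio scaling), with medians of -0.27 and -0.11. Among all genes tested, 46.0% and 47.3% were called lower in these comparisons. The second median lies near that of all genes (-0.15). The germline genes given above fell in both comparisons too, while the ovary markers Vm26Aa, Vm26Ab and psd rose in both. The part of ovary transcripts was not tested. Arc42, an acyl-CoA dehydrogenase, stood at 56.5 ± 1.51, 69.3 ± 0.90 and 84.4 ± 2.23 TPM (log2 -0.58 and -0.28, limma adjusted p = 1.1e-07 and 5.3e-05). Mtpalpha, a subunit of the mitochondrial trifunctional protein, fell by 0.50 and 0.26 (limma adjusted p = 5.5e-07 and 1.7e-04), and Acox57D-p, a peroxisomal oxidase, by 0.54 and 0.25 (limma adjusted p = 3.8e-06 and 0.00173).

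For transport and uptake, 4 of 7 genes rose and 3 fell in Chd1-deficient, and 3 rose and 2 fell in elav>Chd1 libraries, against wild type. Fatp1, a fatty acid transporter, stood at 26.1 ± 0.60, 20.7 ± 1.16 and 12.5 ± 1.01 TPM (log2 1.03 and 0.71, limma adjusted p = 1.4e-07 and 7.7e-06). Apoltp, a lipid transfer particle of the blood, rose by 0.79 and 0.64 (limma adjusted p = 1.8e-06 and 2.5e-05).

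Of 12 regulators, 3 rose and 8 fell in Chd1-deficient, and 5 rose and 4 fell in elav>Chd1 libraries, against wild type. sug, a zinc finger factor induced by dietary sugar, stood at 20.1 ± 0.79 TPM in Chd1-deficient, 57.3 ± 1.03 TPM in elav>Chd1 and 25.0 ± 1.27 TPM in wild-type libraries. It rose by 1.18 in elav>Chd1 (limma adjusted p = 2.9e-08) and fell by 0.30 in Chd1-deficient (limma adjusted p = 1.7e-04). Akh, the adipokinetic hormone made in the corpora cardiaca, rose in both, at 6.46 ± 0.75, 4.87 ± 0.43 and 1.83 ± 0.59 TPM (log2 1.61 and 1.24, limma adjusted p = 6.0e-06 and 9.5e-05). So did Thor, the translational repressor 4E-BP, at 509 ± 4.16, 383 ± 13.7 and 225 ± 9.74 TPM (log2 1.18 and 0.77, limma adjusted p = 1.0e-09 and 7.5e-08). The processing genes of SREBP, named after their values were seen, were lower in Chd1-deficient than in wild-type libraries, with log2 fold changes of -0.36 for SCAP, -0.61 for S1P and -0.49 for S2P (limma adjusted p = 9.2e-04, 8.4e-05 and 3.3e-06). In elav>Chd1 against wild type S1P (-0.24) and S2P (-0.34) were also called lower, and SCAP (-0.12) was not called (limma adjusted p = 0.0329, 1.2e-04 and 0.161).

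**Figure D4:**
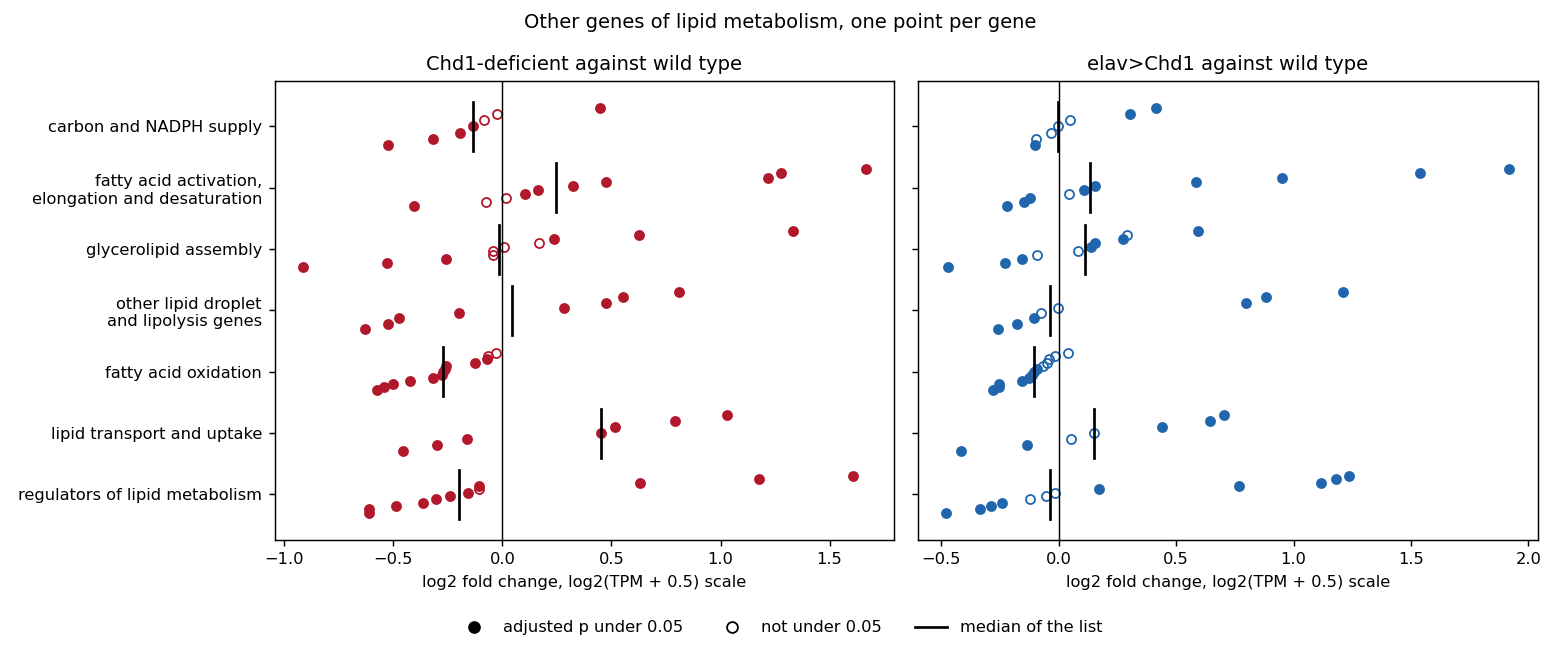
Log2 fold change (horizontal axes) of the 67 tested genes in 7 lists, 1 point per gene, for Chd1-deficient (left) and elav>Chd1 (right) against wild type; filled points have a limma adjusted p under 0.05 and black bars are list medians. Oxidation genes lie at or left of 0 in the left panel (11 lower, none higher), and Fad2 and eloF lie farthest right in the right panel (1.92 and 1.54).

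Oenocyte and fat body markers did not follow one pattern. The oenocyte list (Cyp4g1, eloF and Fad2) summed to 668 to 709 TPM in Chd1-deficient libraries, 1026 to 1035 TPM in elav>Chd1 libraries and 305 to 316 TPM in wild-type libraries, and all 3 markers rose in both comparisons with wild type. Cyp4g1, the oenocyte cytochrome P450 of hydrocarbon synthesis, stood at 599.8 ± 20.4, 877 ± 2.52 and 268 ± 4.20 TPM. Fat body markers (6 genes) summed to 1498 to 1536 TPM in Chd1-deficient, 259 to 264 TPM in elav>Chd1 and 404 to 415 TPM in wild-type libraries. Most of each sum came from fit (means of 1175, 126 and 244 TPM) and Lsp2 (233, 62.4 and 103 TPM). Of the 6 markers, 5 rose in Chd1-deficient against wild type and none fell. Fbp1, 1 of these 5, had means of 21.6, 0.27 and 0.91 TPM in Chd1-deficient, elav>Chd1 and wild-type libraries. It passed the filter on low values only through the Chd1-deficient libraries, so its place among the 5 carries no weight. In elav>Chd1 against wild type 2 rose (to and Apoltp), 3 fell (Lsp2, Fbp1 and fit) and apolpp was not called. Thus oenocyte marker sums, mostly Cyp4g1, ranked the genotypes as FASN1, FASN2, FASN3 and Lsd-1 did. Fat body marker sums, mostly fit and Lsp2, were lowest in elav>Chd1 libraries, though to and Apoltp rose there against wild type. The part of these cells in the results was not tested.

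FASN1 and FASN2 lie beside each other near Chd1. The Chd1-deficient libraries still held 18.2 to 20.2 TPM assigned to Chd1, and the sources used here do not say which part of the gene the mutation removes. In the dm6 assembly (Ensembl annotation), Chd1 (FBgn0250786) spans 2979562 to 2987723 on the minus strand of chromosome arm 2L. FASN2 (FBgn0042627) spans 3043947 to 3056143 and FASN1 (FBgn0283427) spans 3056598 to 3068177, both on the plus strand, 454 bases apart. Their starts lie 56224 and 68875 bases from the start of Chd1. FASN3 is on 3L, Lsd-1 and Desat1 on 3R, Lsd-2 on X and ACC on 2R.

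Within 100000 bases of the Chd1 start lay 29 other genes, of which 25 were tested. In elav>Chd1 against wild type 13 of the 25 were called higher and 5 lower, against 30.6% and 47.3% of all genes tested. In Chd1-deficient against wild type 6 were higher and 16 lower, against 42.9% and 46.0% of all genes. The 25 include FASN1 and FASN2, which were called higher in both comparisons. The window was then divided at Chd1, a choice made after the values were seen. On the side of FASN1 and FASN2, these left out, 15 of 16 genes had a log2 fold change below 0 in Chd1-deficient against elav>Chd1 (median -0.67) and 15 of 16 had one above 0 in elav>Chd1 against wild type (median 0.28). Of these 16, 13 were called lower and 1 higher in the first, against 33.7% and 34.7% of all genes. In the second, 10 were called higher and none lower, against 30.6% and 47.3%. The 16 include snRNA:U5:23D, which overlaps FASN2, was at 0 TPM in several libraries and was not called (SE 1.16). On the other side, 6 of 7 genes had a log2 fold change below 0 in elav>Chd1 against wild type (median -0.39). Over all genes tested the median was -0.02 in Chd1-deficient against elav>Chd1 and -0.15 in elav>Chd1 against wild type. FASN2 (2.09) and FASN1 (1.42) had the highest elav>Chd1 against wild-type values in the window.

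By size of change in Chd1-deficient against wild type, and with FASN1 and FASN2 left aside, CG17261, Rbp9, CG9641 and CG17224 led the neighbours. CG17261 starts 54828 bases from Chd1, just before FASN2, and stood at 7.60 ± 0.20, 1.83 ± 0.72 and 1.24 ± 0.59 TPM (log2 2.28 against wild type, limma adjusted p = 1.2e-05). Unlike FASN2, it was not called in elav>Chd1 against wild type (log2 0.43, limma adjusted p = 0.164), though it was without elav>Chd1 replicate 1 (0.026) or wild-type replicate 2 (0.042). Rbp9, a neuronal RNA-binding protein gene on the other side of Chd1, was at 34.7 ± 2.12, 23.4 ± 0.44 and 11.8 ± 0.51 TPM. CG9641 was at 82.0 ± 2.23, 105.9 ± 2.47 and 159 ± 6.69 TPM, and CG17224 at 8.72 ± 0.57, 12.1 ± 0.27 and 4.94 ± 0.80 TPM.

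**Figure D5:**
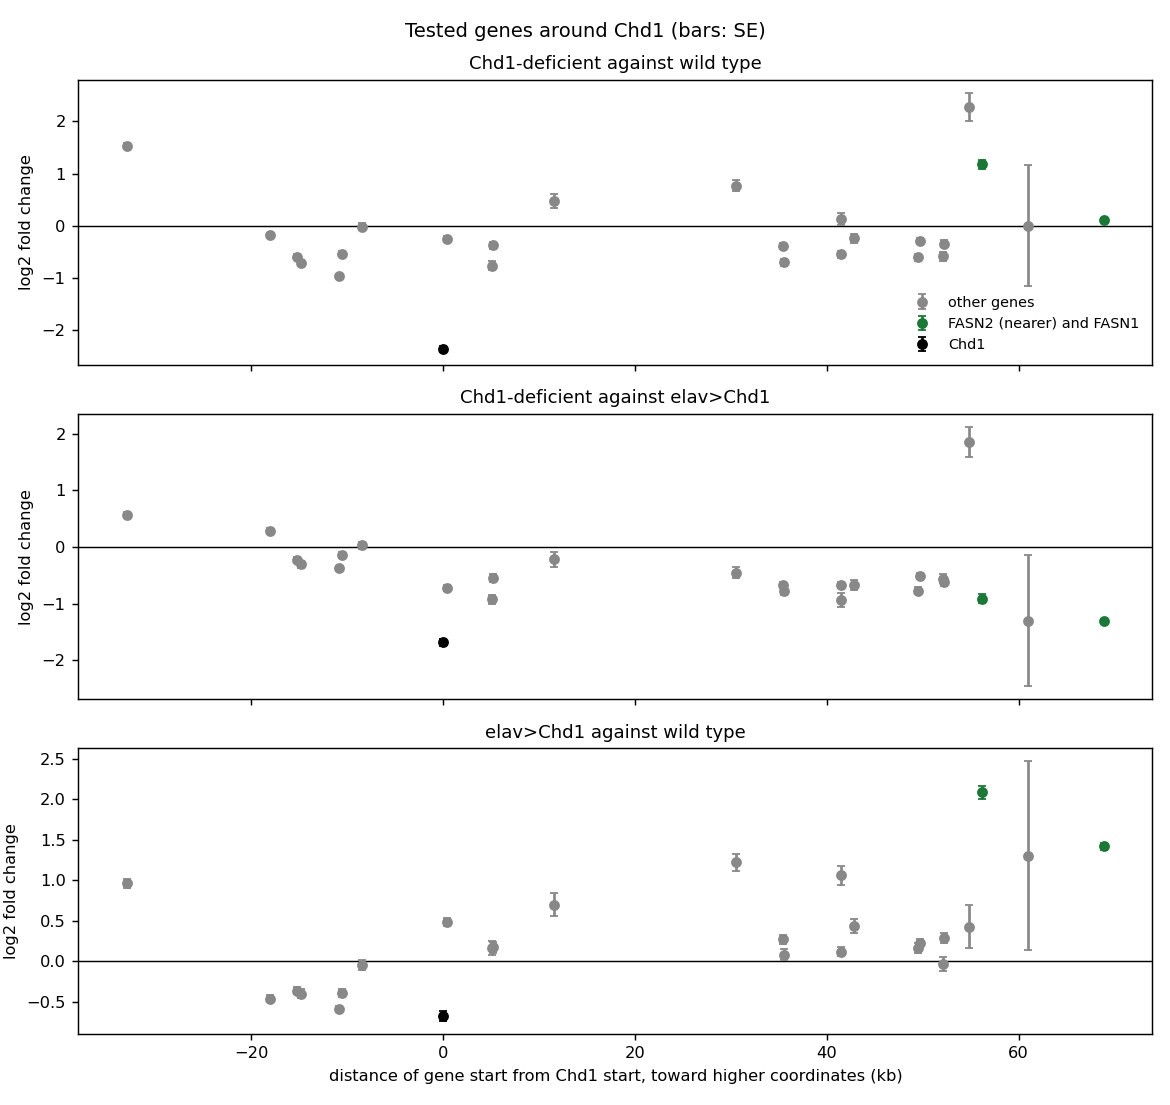
Log2 fold change (vertical axes, bars SE) of the tested genes around Chd1 against the distance of their start from the Chd1 start in kb, for 3 comparisons that share libraries. FASN2 and FASN1 (green) are the highest points in the bottom panel, at 2.09 and 1.42, and most genes on their side of Chd1 lie below 0 in the middle panel and above 0 in the bottom panel.

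The genes nearest to FASN1 and Lsd-1 in all 3 fold changes were searched among 8577 others that reach a mean of 5 TPM in some group. For FASN1 these were CG30281, CG32834 and CG43090, whose log2 fold changes differed from those of FASN1 by at most 0.05, 0.13 and 0.13. CG30281 was low, at 1.90 to 2.80 TPM in Chd1-deficient, 6.18 to 6.49 TPM in elav>Chd1 and 1.87 to 2.24 TPM in wild-type libraries, with an SE of 0.12 (log2). It entered the search only through the elav>Chd1 group, where it is high, so its likeness is partly set by that limit. CG43090 stood at 70.1 ± 2.18 TPM in Chd1-deficient, 163 ± 1.38 TPM in elav>Chd1 and 59.3 ± 2.53 TPM in wild-type libraries. For Lsd-1 they were snoRNA:Psi28S-1192d, eloF and CG43074, with differences of at most 0.08, 0.14 and 0.17. The snoRNA varied between libraries, at 5.98 to 9.18, 15.1 to 21.8 and 3.35 to 8.88 TPM in the same order. Its SE of 0.29 (log2) exceeds its difference from Lsd-1. The elongase gene eloF is thus also in the oenocyte list above, and CG43074 stood at 74.9 ± 0.57, 168 ± 9.19 and 51.9 ± 3.03 TPM.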

How the data were processed

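The authors deposited 1 TPM value per gene and library for 16837 genes in 9 libraries; per the submitters' processing notes the authors used Salmon and DESeq2, with no version or role, and no genome build is named in the sources used here. The authors also deposited log2 fold changes, their standard errors (held as a score beside each fold change) and adjusted p-values for genes with a log2 fold change of at least 1 in size, and only fold changes and errors were taken from them. Libraries were grouped by their titles. Values were transformed to log2(TPM + 0.5), the 11094 genes reaching 1 TPM in 3 or more libraries were kept, and limma-trend was fitted to all 9 libraries, with Benjamini-Hochberg adjustment. As the files hold TPM, no count model was used. Of the file symbols, 16767 were placed on the Ensembl 115 annotation of BDGP6.54 (dm6). The 10 genes, the lists and the tests were chosen with earlier results of these data known. Genes named beyond the 10 were, per list, the 2 called genes with the largest fold change against wild type in each comparison, the 4 largest changes near Chd1 outside the 10 (Chd1-deficient against wild type), and the 3 nearest to FASN1 and Lsd-1. Alternatives were other filters, pseudocounts of 0.1 and 1, median-ratio scaling, 2 groups only, replicate number as a block, and each library left out. Tools were R 4.3.3, limma 3.58.1, Python 3.11.15, pandas 2.3.3, SciPy 1.17.1 and matplotlib 3.10.9.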

Additional observations from a re-analysis of the deposited data

How the results depend on the processing

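With at least 10 TPM in 3 libraries required, 4994 genes were called in Chd1-deficient against elav>Chd1 libraries, 1596 higher and 3398 lower, against 7583 (3847 higher, 3736 lower), with fewer genes tested. Called genes kept within 1.5 times their number under all other settings. Leaving out 1 library gave 6794 to 8299 called genes in that comparison, 9588 to 9993 in Chd1-deficient and 8168 to 8777 in elav>Chd1 against wild type. Of the 10 genes, 6 to 7 and 7 to 8 were then called in these last comparisons, and the perilipin log2 ratio differed by 0.75 to 0.82 and by 1.92 to 1.95. Replicate numbers did not pair the libraries (correlation of deviations across genes -0.16 to 0.11 for same numbers, -0.15 to 0.18 for others); with them as a block 9821 genes were called in Chd1-deficient against wild type, 7421 in Chd1-deficient against elav>Chd1 and 8527 in elav>Chd1 against wild type, in place of 9859, 7583 and 8642, and no call among the 10 genes was lost. Values near 0 changed sign. These were Desat1 in elav>Chd1 against wild type (0.037 with median-ratio scaling, -0.094 to 0.025 without 1 library) and Ldsdh1 in Chd1-deficient against elav>Chd1 (-0.018 and -0.0047 to 0.033). Without 1 library, mdy (-0.14 to 0.0029), SREBP (-0.080 to 0.0077) and CG1946 (-0.067 to 0.32) did so in Chd1-deficient, and Elo68alpha (-0.053 to 0.15) in elav>Chd1, against wild type; the cause was not tested. With median-ratio scaling ACC was also called higher in Chd1-deficient against wild type (0.09). TPM keep no depth, so no counting error could be given.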
